A study of Homo sapiens with 12 samples.

Results

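The genes described here were 10 members of the NF-kappaB system, taken by gene symbol from the 58735 rows of the count table. They were the subunit genes *NFKB1*, *NFKB2*, *RELA* and *RELB*, the IkappaB family genes *NFKBIA*, *NFKBIZ* and *BCL3*, the ubiquitin-linked feedback genes *TNFAIP3* and *BIRC3*, and the ligand gene *TNF*. They were measured by poly(A) RNA sequencing in TIGK cells, a single line of human gingival keratinocytes immortalized by transfection of telomerase (hTERT). All cells were cultured at 48 mM glucose in DMEM-SILAC Flex medium, an Arg-free base to which pituitary extract, insulin, TGF-α, hydrocortisone hemisuccinate, epinephrine, L-lysine, apo-transferrin and L-Glutamine had been added. The 4 groups were control without L-Arginine (Arg) for 24 h, 500 μM Arg for 24 h, control for 48 h, and 500 μM Arg for 48 h, with 3 libraries (A, B and C) each.

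NF-kappaB is a family of dimeric transcription factors that IkappaB proteins hold in the cytoplasm of resting cells. Signals from cytokine and pattern-recognition receptors lead IkappaB kinases to mark the inhibitor for degradation, and the freed dimers enter the nucleus and switch on genes of inflammation and survival. Several of these genes encode inhibitors of the same pathway, so that the response limits itself, and in oral keratinocytes the pathway is known for the cytokine and chemokine response to bacteria.

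The DNA just before the transcription starts of these genes is shown first because NF-kappaB is known to act on several of its own regulators. RefSeq promoter sequences (build GRCh38.p14) were found by symbol for 9 of the 10 genes, with no entry for *RELB*. Some genes have several starts, which gave 14 windows of 250 bases upstream of a start. The NF-kappaB consensus, a pattern of 10 letters searched on both strands, matched in 8 of the 14 windows, against 9.96% of all 35116 windows of the same length. Genes with several starts count more than once here, and the matched windows belong to 6 of the 9 genes. A match is a description of the letters only. The windows below belong to the 4 genes whose levels passed a test in at least 1 comparison between groups, and to *BIRC3*, with the consensus matches in capitals and the remaining bases in lower case.
NFKBIA (chr14:35404750-35404999, minus strand): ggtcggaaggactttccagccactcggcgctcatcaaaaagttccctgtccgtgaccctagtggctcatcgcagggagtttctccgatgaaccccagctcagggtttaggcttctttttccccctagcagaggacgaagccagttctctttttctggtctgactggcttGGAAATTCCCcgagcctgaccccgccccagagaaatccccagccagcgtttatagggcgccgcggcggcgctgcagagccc
TNFAIP3 (chr6:137867009-137867258, plus strand): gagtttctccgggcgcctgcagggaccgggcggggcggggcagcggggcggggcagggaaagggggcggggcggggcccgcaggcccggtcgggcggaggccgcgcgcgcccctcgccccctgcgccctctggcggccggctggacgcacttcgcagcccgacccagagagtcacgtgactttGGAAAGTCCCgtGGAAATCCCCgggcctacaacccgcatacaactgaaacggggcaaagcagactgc
BCL3 (chr19:44748458-44748707, plus strand): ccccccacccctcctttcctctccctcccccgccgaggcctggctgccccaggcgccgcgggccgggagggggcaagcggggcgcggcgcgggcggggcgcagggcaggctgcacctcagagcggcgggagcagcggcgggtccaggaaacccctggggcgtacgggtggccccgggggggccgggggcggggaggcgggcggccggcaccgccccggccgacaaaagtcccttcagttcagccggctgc
NFKB2 (chr10:102394328-102394577, plus strand): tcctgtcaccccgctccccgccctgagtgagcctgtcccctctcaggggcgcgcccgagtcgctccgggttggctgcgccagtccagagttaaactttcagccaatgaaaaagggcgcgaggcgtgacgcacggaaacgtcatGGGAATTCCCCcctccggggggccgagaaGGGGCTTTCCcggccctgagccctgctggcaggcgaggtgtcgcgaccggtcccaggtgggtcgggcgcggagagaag
BIRC3 (chr11:102317234-102317483, plus strand): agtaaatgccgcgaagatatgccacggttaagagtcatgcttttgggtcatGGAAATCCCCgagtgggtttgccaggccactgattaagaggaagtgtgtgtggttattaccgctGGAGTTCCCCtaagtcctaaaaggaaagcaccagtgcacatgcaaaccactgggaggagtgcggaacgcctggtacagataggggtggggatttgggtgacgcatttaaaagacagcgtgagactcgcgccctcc

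*NFKBIA* held 1 match, 81 to 72 bases before its start and read on the opposite strand. *TNFAIP3* held 2 opposite-strand matches side by side, at 67 to 58 and 55 to 46 bases before the start. *BIRC3* also held 2 on the opposite strand, but farther apart, at 199 to 190 and 135 to 126 bases. The *NFKB2* window shown, the second of its 3 starts, held 3 matches, of which the pair at 107 to 98 and 106 to 97 bases overlap, so that they are capitalized as a single run. The third *NFKB2* window held 2 more matches and the first none. *NFKB1* held 1 match, 49 to 40 bases before the first of its 2 starts, and *NFKBIZ* 1 before each of its 2 starts. No match was found in the windows of *BCL3*, *RELA* and *TNF*. The count table places the starts of some of these genes elsewhere than RefSeq. The *BCL3* and *NFKB2* windows shown lie inside the genes as the table places them, from 44747705 to 44760044 on chromosome 19 and from 102394110 to 102402529 on chromosome 10, and the *TNFAIP3* matches lie just after the start the table gives, at 137867188 on chromosome 6.

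**Figure D1:**
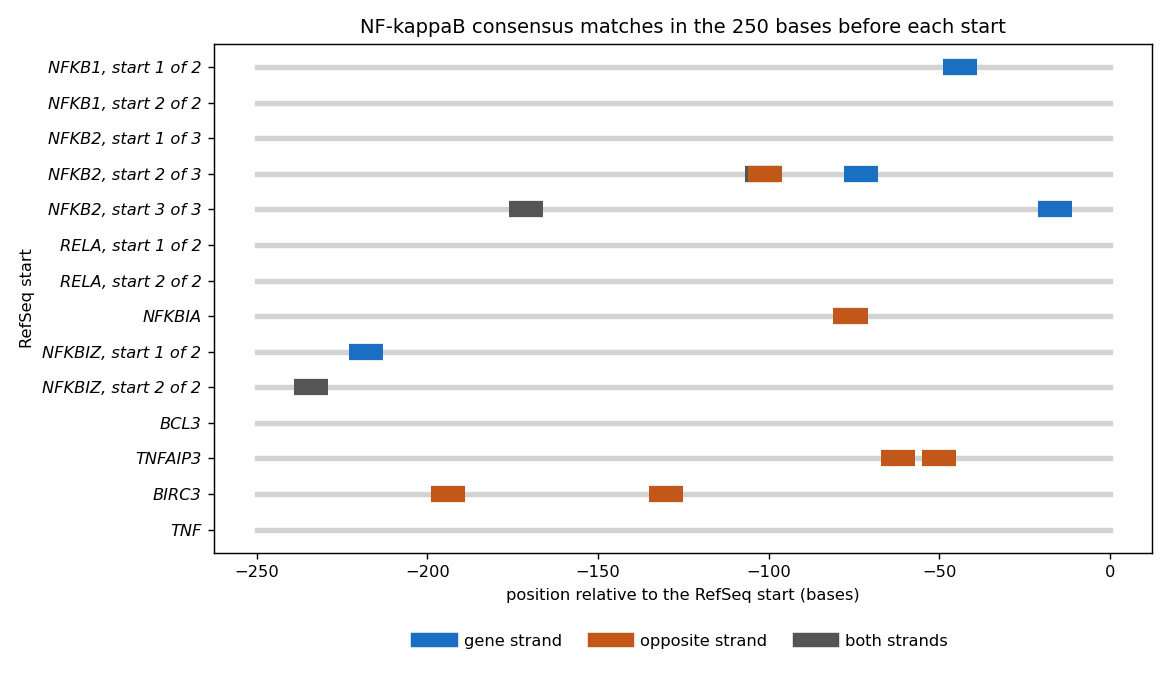
Positions of NF-kappaB consensus matches (coloured blocks) in the 250 bases before each RefSeq start of 9 genes, in bases relative to the start; colour marks the strand of the match. Matches are seen in 8 of 14 windows, and the *TNFAIP3* pair lies closest together of the pairs that do not overlap.

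Each library held between 16542243 and 19040964 counts. The 8 keratinocyte markers summed to 42650 to 54537 CPM (counts scaled to a common library size) in every library, and the sums for the 8 fibroblast, 8 leukocyte, 4 endothelial and 4 melanocyte markers did not exceed 103, 25.9, 6.41 and 3.06 CPM. No 2 libraries of a group agreed within sampling noise. Control 48 h library B stood apart from A and C of its group, with a chi-square per degree of freedom of 20.9 and 23.9 against 3.66 between A and C, and mitochondrial genes made up 1.55% of its counts against 0.906% and 0.707%. The calls that rest on the 48 h controls are therefore given with and without this library. To a smaller degree control 24 h library B differed from A and C (12.3 and 12.5, against 6.54 between A and C). Arg 24 h library A likewise differed from B and C (12.4 and 10.9, against 5.41 between B and C). The labels do not say that replicates came from separate cultures, so p-values measure only the spread between these libraries.

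Of the 10 genes, 9 were measured in every library and *TNF* was almost absent. Levels between genes were compared as TMM-normalized CPM per kilobase of exonic length. *NFKBIA*, which encodes the main inhibitor that binds NF-kappaB in the cytoplasm, was highest on this scale with a mean of 36.3 ± 7.69 CPM per kb (SD, n = 12 libraries). *RELA*, the transactivating subunit of the classical dimer, followed at 23.3 ± 1.26, and its partner *NFKB1* at 11.9 ± 0.665. *NFKB2*, the subunit gene of the non-canonical pathway, had 3.81 ± 0.683, *BIRC3* 2.90 ± 0.363, *TNFAIP3* 2.20 ± 0.735 and *BCL3* 1.41 ± 0.435 CPM per kb. *NFKBIZ*, an inducible nuclear IkappaB protein, and *RELB*, the usual partner of the *NFKB2* product, were lower, at 0.656 ± 0.134 and 0.618 ± 0.178 CPM per kb.

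The order of these levels was not the same in all groups. *RELA* and *NFKB1* never overlapped with each other. *NFKBIA* lay above *RELA* without overlap in both control groups and with Arg at 48 h, but with Arg at 24 h its lowest library, at 23.3 CPM per kb, fell under the highest *RELA* library, at 25.2. *NFKB2*, *TNFAIP3* and *BIRC3* could not be ordered in the 24 h controls, where the highest *TNFAIP3* library reached 4.01 CPM per kb and the lowest *NFKB2* library was at 2.75. In the other 3 groups *BIRC3* lay above *TNFAIP3* without overlap. *RELB* and *NFKBIZ* overlapped in all groups except Arg at 24 h.

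*TNF*, the cytokine that is both an activator and a target of the pathway, had 9 counts over all 12 libraries. They were 4 counts in control 48 h library B, 4 in Arg 48 h library A and 1 in Arg 48 h library C. All 6 libraries of the 24 h groups had 0. A count of 0 allows a level of up to 0.161 to 0.175 CPM in these 6 libraries (3 counts, counting error only), and *TNF* was below the filter on low counts in every comparison, so it was not tested.

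**Figure D2:**
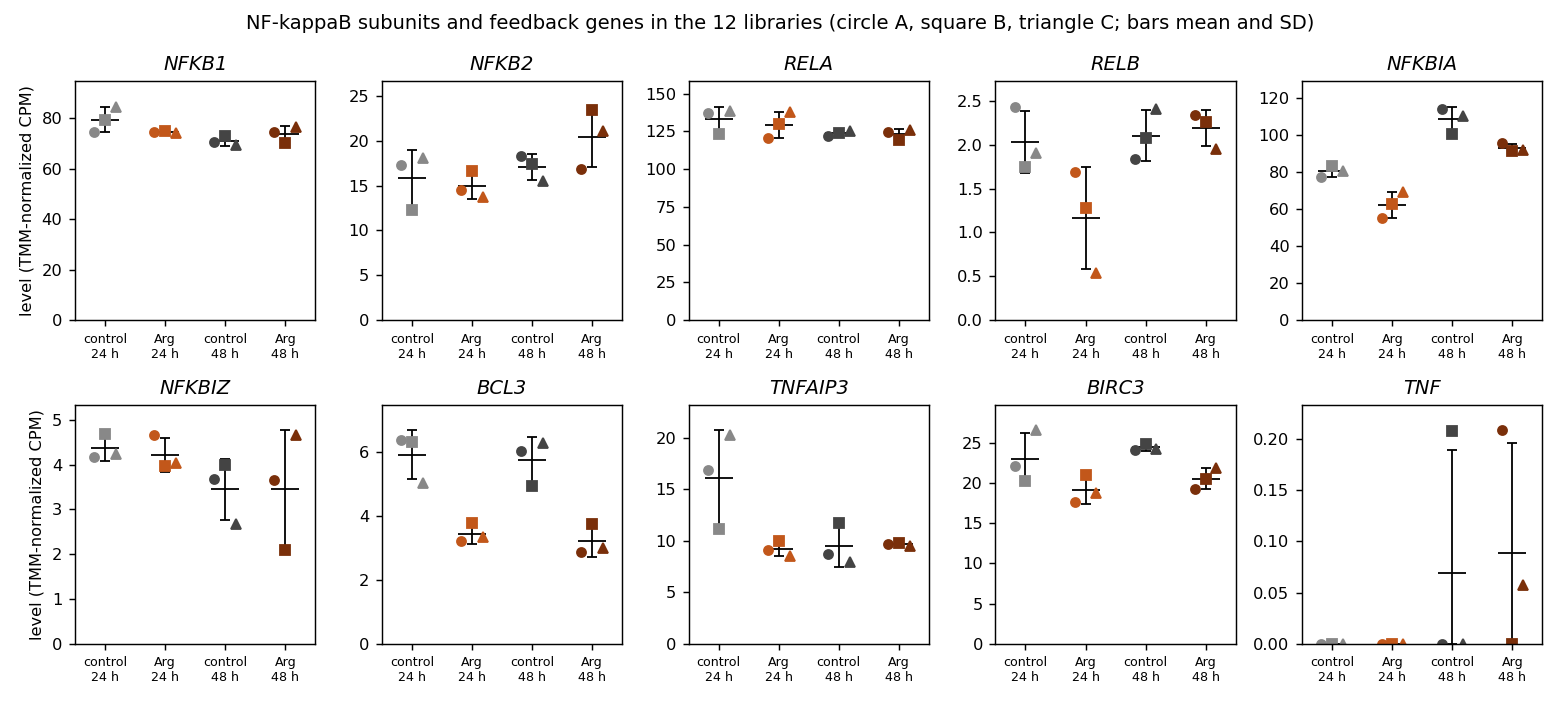
Levels of the 10 genes (TMM-normalized CPM, linear axes from 0) in the 12 libraries by group; symbols mark libraries A, B and C, and bars the mean and SD of 3 libraries, cut at 0 for *TNF*. *NFKBIA* is lower with Arg than in control at each time and higher at 48 than at 24 h, *BCL3* is lower in both Arg groups, and *TNFAIP3* is high in 24 h control libraries A and C.

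The comparison of Arg with control at 24 h asked which of these genes differed after the shorter treatment. *TNFAIP3*, *NFKBIA* and *BCL3* fell with Arg, and none rose. All 3 encode proteins known to restrain or modify NF-kappaB activity, as do *NFKBIZ* and *BIRC3*, which did not pass. Of the 9 genes tested, 0 were called higher and 3 lower at an adjusted p under 0.05 (edgeR quasi-likelihood test, Benjamini-Hochberg over all genes), against 2.79% and 3.84% of all 14279 genes tested. The log2 fold change was negative in 9 of 9, with a median of −0.27, against 7063 negative and a median of 0.0030 among all genes tested. Those of *NFKB2*, *RELA* and *NFKBIZ* each turned positive in 1 of the 6 fits that left out 1 library. The genes were chosen with earlier results of these data known, so the contrast with all genes is a description only.

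*TNFAIP3* (ENSG00000118503, chromosome 6, 137867188 to 137883312, plus strand) encodes a ubiquitin-editing enzyme that switches off signalling from TNF and Toll-like receptors. Its level was 16.8, 11.1 and 20.3 CPM in the control libraries A, B and C and 9.10, 9.96 and 8.55 CPM with Arg. Controls A and C stood well above all Arg libraries, whereas control B was only slightly above the highest of them, and the groups did not overlap. The log2 fold change was −0.81 (SE 0.19, 95% interval −1.20 to −0.42, adjusted p = 0.0140, edgeR), a fold of 0.571. The call was lost on leaving out control A (adjusted p = 0.0690), control C (0.0891, log2 fold change −0.61) or Arg C (0.0647), by edgeR. An antisense gene, *AL357060.1*, overlaps the span of *TNFAIP3* from start to end by 1046 bases, and how many of these are exonic was not measured. As the strand setting of the counting is not stated in the sources used here, reads in that stretch cannot be assigned with certainty. *AL357060.1* held 27, 39 and 32 counts in the control libraries and 40, 17 and 16 with Arg, against at least 159 for *TNFAIP3*.

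*NFKBIA* (ENSG00000100906, chromosome 14, 35401511 to 35404749, minus strand) had 77.6, 83.2 and 80.5 CPM in control and 55.2, 62.8 and 69.1 CPM with Arg. Every Arg library lay below every control library. The log2 fold change was −0.37 (SE 0.094, 95% interval −0.57 to −0.17, adjusted p = 0.0250, edgeR), a fold of 0.775. Its edgeR call was lost on leaving out control A (adjusted p = 0.0705), control C (0.0767), Arg A (0.0617) or Arg B (0.0885).

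*BCL3* (ENSG00000069399, chromosome 19, plus strand) encodes a nuclear IkappaB protein that binds dimers of the *NFKB1* and *NFKB2* products on DNA. It had 6.39, 6.33 and 5.04 CPM in control and 3.20, 3.79 and 3.33 CPM with Arg, again without overlap. The log2 fold change was −0.78 (SE 0.21, 95% interval −1.24 to −0.33, adjusted p = 0.0355, edgeR), a fold of 0.580. The size of the difference held in each of the 6 fits that left out 1 library (−0.89 to −0.73), but the edgeR call was lost in all 6, with adjusted p between 0.0501 and 0.143.

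*RELB* (ENSG00000104856) did not pass the test. It had 2.44, 1.75 and 1.91 CPM in control and 1.69, 1.28 and 0.537 CPM with Arg, the last of these from 10 counts. The groups did not overlap, but the Arg libraries spread widely and the log2 fold change of −0.80 had an SE of 0.41 (95% interval −1.66 to 0.053, adjusted p = 0.251, edgeR). In all, 4 of the 9 genes tested lay wholly below control in the Arg libraries, against 13.4% of all genes tested, and the smallest exact permutation p that 3 against 3 libraries can give is 0.1.

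*BIRC3*, a ubiquitin ligase of TNF receptor complexes that protects cells from death signals, had 22.1, 20.3 and 26.6 CPM in control and 17.6, 21.1 and 18.8 CPM with Arg. The groups overlapped through control B and Arg B, and the log2 fold change of −0.27 (SE 0.13) did not pass (adjusted p = 0.224, edgeR). The intervals of the remaining genes all included 0. *RELA* had 137, 123 and 138 CPM in control and 120, 130 and 138 CPM with Arg, with a 95% interval of −0.22 to 0.14 for the log2 fold change. *NFKB1* had 74.6, 79.3 and 84.7 CPM in control and 74.7, 75.0 and 74.4 CPM with Arg (interval −0.27 to 0.086). The interval for *NFKB2* was −0.41 to 0.23 and that for *NFKBIZ* −0.50 to 0.40, so a moderate difference in either direction remains possible for these less abundant genes.

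At 24 h other measures moved with the groups. The mitochondrial share of counts was 1.20% to 1.30% in control and 0.624% to 0.802% with Arg, and the summed level of the 8 leukocyte markers was 6.14 to 8.61 CPM in control and 11.01 to 13.7 CPM with Arg, with 2 of the 8 at 0 in all libraries. Most of that sum was *CSF1R*, which had 5.201, 4.97 and 3.94 CPM in control and 9.22, 11.4 and 11.1 CPM with Arg (log2 fold change 1.16, adjusted p = 0.000980, edgeR). *CD14* had 3.09, 3.28 and 2.09 CPM in control and 1.35, 2.04 and 1.18 CPM with Arg, a value in the opposite direction that did not pass (adjusted p = 0.120, edgeR). The fibroblast marker *DCN* and the keratinocyte marker *ITGA6* were lower with Arg, by log2 fold changes of −0.70 (SE 0.18, adjusted p = 0.0294) and −0.40 (SE 0.084, adjusted p = 0.00840, edgeR). The 2 lists were mixed. Of the 8 keratinocyte markers 5 had a positive log2 fold change and 3 a negative one, and of the 4 fibroblast markers tested 2 and 2. The highest keratinocyte values were those of *DSG3* (0.40, adjusted p = 0.130) and *KRT14* (0.32, adjusted p = 0.0571, edgeR), and neither passed. The part of these measures in the differences of the NF-kappaB genes was not tested. In bulk RNA, fewer expressing cells and less RNA per cell cannot be told apart.

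Between Arg and control at 48 h no gene of the set passed the edgeR test, with 0 called higher and 0 lower. Among all 14562 genes tested, 0% were called higher and 0.117% lower. *BCL3*, *NFKBIA* and *BIRC3* lay wholly below control in the Arg libraries, 3 of the 9 tested against 8.51% of all genes. At an unadjusted p under 0.05 the same 3 genes were lower and 0 were higher, against 7.49% and 5.94% of all genes, and DESeq2 likewise called 0 after adjustment. *TNFAIP3*, which fell at 24 h, had nearly equal means in both groups.

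*BCL3* had 6.03, 4.93 and 6.27 CPM in control and 2.87, 3.75 and 2.99 CPM with Arg. The levels were close to those of the same treatments at 24 h, and the log2 fold change was −0.85 (SE 0.22, 95% interval −1.32 to −0.37, adjusted p = 0.161, edgeR). *NFKBIA* had 114, 101 and 111 CPM in control and 95.6, 91.4 and 92.2 CPM with Arg. Control B was the lowest control but still above all Arg libraries. Its log2 fold change was −0.22 (SE 0.070, 95% interval −0.37 to −0.072, adjusted p = 0.218, edgeR). *BIRC3* had 24.2, 24.9 and 24.3 CPM in control and 19.2, 20.5 and 21.9 CPM with Arg, with a log2 fold change of −0.25 (SE 0.10, adjusted p = 0.305, edgeR).

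The calls at 48 h changed with control library B. Without it, edgeR called *NFKBIA* (log2 fold change −0.27, adjusted p = 0.00435) and *BCL3* (−0.94, adjusted p = 0.00594) lower. These calls came with a rise over all genes, where the number called in either direction went from 17 to 2365. *BIRC3* did not pass without it (−0.24, adjusted p = 0.130, edgeR), nor did *TNFAIP3* (0.21, adjusted p = 0.401) or *NFKB2* (0.27, adjusted p = 0.177). *BCL3* was also called when genes with low counts were not filtered out (adjusted p = 0.0311, edgeR), a setting in which more genes were called among all genes as well.

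*TNFAIP3* had 8.71, 11.7 and 7.94 CPM in control and 9.65, 9.82 and 9.50 CPM with Arg. The Arg libraries lay inside the range of the controls, and the 95% interval of the log2 fold change was −0.34 to 0.40. *AL357060.1*, the antisense gene, held 60, 34 and 34 counts in control and 25, 19 and 22 with Arg. *RELB* was likewise close in both groups, at 1.84, 2.07 and 2.41 CPM in control and 2.35, 2.26 and 1.96 CPM with Arg. *NFKB2* had 18.3, 17.4 and 15.5 CPM in control and 16.8, 23.5 and 21.1 CPM with Arg. Arg libraries B and C were the highest of the series, but Arg A lay within the controls, and the log2 fold change of 0.26 (SE 0.14) did not pass (adjusted p = 0.431, edgeR). The intervals were narrow for *RELA* (−0.14 to 0.13) and *NFKB1* (−0.10 to 0.20) and wide for *NFKBIZ* (−0.66 to 0.67), whose Arg libraries ranged from 2.08 to 4.66 CPM.

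**Figure D3:**
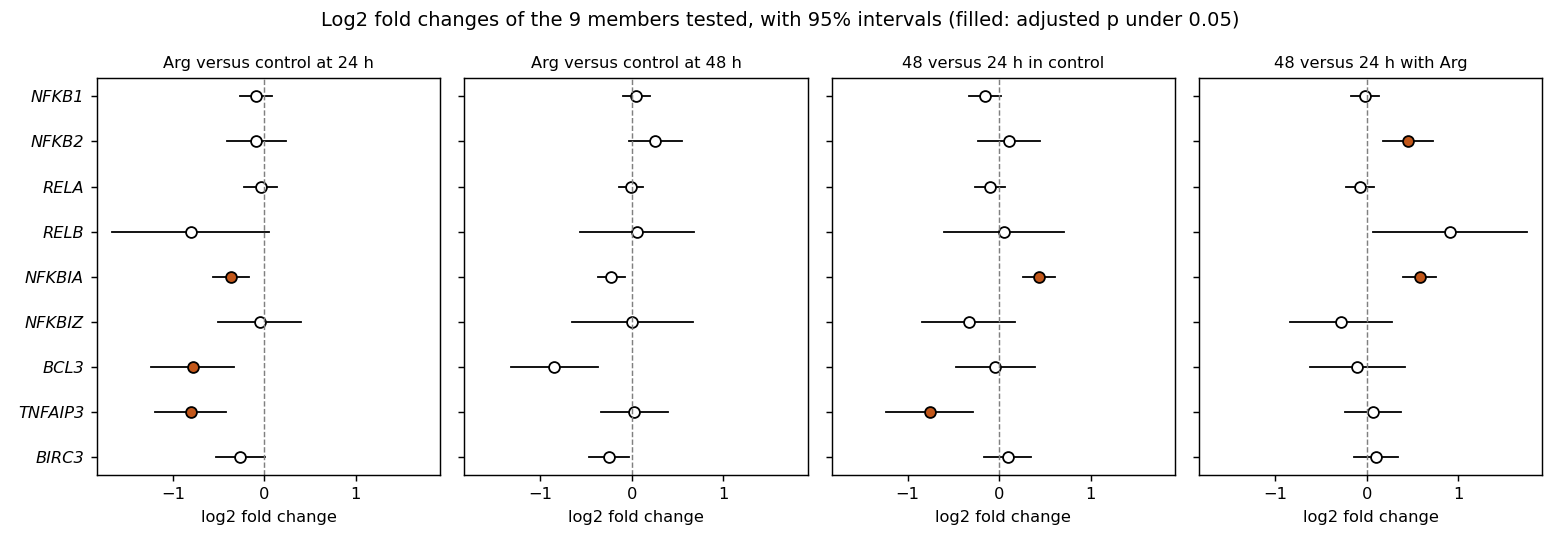
Log2 fold changes (points) with 95% intervals (lines) of the 9 genes tested, for Arg against control at each time and 48 against 24 h within each treatment; filled points have an adjusted p under 0.05 (edgeR). *NFKBIA*, *BCL3* and *BIRC3* lie below 0 at both times with Arg, *TNFAIP3* lies below 0 at 24 h and near 0 at 48 h, and *NFKBIA* lies above 0 from 24 to 48 h in both treatments.

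The interaction over all 12 libraries tested whether the Arg effect differed between 48 and 24 h. No gene of the set passed, with 0 called higher and 0 lower by edgeR, against 0.0132% and 0% of all 15148 genes tested, and DESeq2 also called 0. *TNFAIP3* had the largest support, with a difference of 0.84 on the log2 scale (SE 0.27, 95% interval 0.28 to 1.39, adjusted p = 0.558, edgeR), and was the 1 gene of the 9 with an unadjusted p under 0.05, against 3.06% of all genes in that direction. Without control 48 h library B it was 1.02 (adjusted p = 0.128, edgeR). The difference was 0.86 for *RELB* (SE 0.50, interval −0.18 to 1.90). For *NFKBIA* and *BCL3* it was 0.15 (interval −0.10 to 0.39) and −0.060 (interval −0.67 to 0.55). The loss of the *TNFAIP3* call at 48 h is therefore not shown to be a difference between the times.

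The comparisons of 48 with 24 h asked how the genes differed between the times within each treatment, and they share their libraries with the comparisons above. *NFKBIA* rose in both treatments. In control its log2 fold change was 0.44 (SE 0.080, 95% interval 0.26 to 0.61, adjusted p = 0.00480, edgeR), from 77.6 to 83.2 CPM at 24 h to between 101 and 114 CPM at 48 h. With Arg it was 0.58 (SE 0.085, interval 0.40 to 0.76, adjusted p = 4.27e-05, edgeR), from between 55.2 and 69.1 CPM to between 91.4 and 95.6 CPM. Neither pair of groups overlapped, and edgeR called the gene without any single library.

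In control 1 of the 9 genes tested was higher, against 9.90% of all 14449 genes tested, and 2 of the 9 were called in either direction, against 19.9%. The lower gene was *TNFAIP3*, with a log2 fold change of −0.76 (SE 0.22, adjusted p = 0.0298, edgeR). Its groups overlapped, since control B had 11.1 CPM at 24 h and 11.7 CPM at 48 h. The call was lost on leaving out A or C of either time (adjusted p 0.0833 to 0.148, edgeR) and was kept without B of either time. Without control 48 h library B the log2 fold changes were 0.48 for *NFKBIA* (adjusted p = 0.00156) and −0.95 for *TNFAIP3* (adjusted p = 0.00967, edgeR). *BCL3* had a log2 fold change of −0.041 in control (95% interval −0.47 to 0.39), which was 0.057 without that library, and *RELA* one of −0.10 (interval −0.27 to 0.062).

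With Arg 2 of the 9 were higher and 0 lower, against 14.3% and 14.0% of all 14398 genes tested. Beside *NFKBIA* the other gene was *NFKB2*, which had 14.6, 16.6 and 13.7 CPM at 24 h and 16.8, 23.5 and 21.1 CPM at 48 h. The 24 h B library lay only just below the 48 h A library. Its log2 fold change was 0.45 (SE 0.13, 95% interval 0.18 to 0.73, adjusted p = 0.0148, edgeR). The edgeR call was lost without Arg 24 h C (adjusted p = 0.0580), Arg 48 h B (0.104) or Arg 48 h C (0.0521). *RELB*, the partner of the *NFKB2* product, was higher at 48 h in every library with a log2 fold change of 0.91 (SE 0.40) and an adjusted p of 0.1005 (edgeR), and passed only without Arg 24 h A (adjusted p = 0.0452). *TNFAIP3* with Arg differed by 0.071 on the log2 scale (interval −0.24 to 0.38).

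Markers of other cell types also moved between the times. The summed fibroblast markers were 30.3 to 54.4 CPM in the 24 h libraries and 72.8 to 103 CPM at 48 h. The leukocyte markers summed to 6.14 to 13.7 and 19.9 to 25.9 CPM, and the endothelial markers to 0.757 to 3.01 and 4.09 to 6.41 CPM. Most of the fibroblast sum was *DCN* and *COL1A1*, with control means of 31.7 and 12.4 CPM at 24 h and 66.7 and 24.4 CPM at 48 h. *COL1A2*, *COL3A1*, *PDGFRA* and *THY1* had group means of at most 0.133 CPM. *PDGFRB* went from 1.03 to 0.951 CPM in control and from 0.911 to 0.814 CPM with Arg. The endothelial sum was mostly *KDR* and *VWF*. Most of the leukocyte sum was again *CSF1R*, with a log2 fold change of 1.91 in control and 1.00 with Arg, while *CD14* had −0.20 and −0.38 and did not pass (adjusted p = 0.694 and 0.534, edgeR). With Arg the mitochondrial share of counts was 0.624% to 0.802% at 24 h and 1.14% to 1.31% at 48 h, without overlap. Their part in the differences of *NFKBIA* and *NFKB2* was not tested.

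Lists of 101 further genes covered the remaining subunits and inhibitors, ligands, receptors, adaptors and ubiquitin ligases, kinases, other negative regulators and target genes. At 24 h 82 could be tested, and 1 rose and 6 fell with Arg by edgeR, against 2.79% and 3.84% of all genes tested. The members that fell were 1 of 5 ligands, 1 of 16 receptors, 1 of 12 negative regulators and 3 of 19 target genes. The median log2 fold change was −0.92 for the 5 ligands tested and −0.16 for the 19 target genes, and 13 of those 19 were negative. The number that fell was 1 without control A, 2 without control C or Arg B, 3 without Arg C and 10 without control B. The number called among all genes also changed with the library left out and was likewise highest without control B. The changes are therefore not read as a result about the lists.

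*IL1A*, a ligand that activates the pathway through the IL-1 receptor, had 7.58, 4.01 and 9.85 CPM in the 24 h controls and 1.97, 3.67 and 3.98 CPM with Arg (log2 fold change −1.16, SE 0.30, adjusted p = 0.0295, edgeR). *TNFRSF1B*, a TNF receptor, had 8.72, 6.16 and 4.64 CPM in control and 3.03, 2.50 and 2.36 CPM with Arg (log2 fold change −1.31, SE 0.26, adjusted p = 0.00516, edgeR). *TNIP2*, which encodes a binding partner of the *TNFAIP3* product, fell by 0.40 on the log2 scale (SE 0.11, adjusted p = 0.0351, edgeR). As for *TNFAIP3*, control B was the lowest control for *IL1A* and *TNIP2*, but not for *TNFRSF1B*.

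Among the targets the immediate-early gene *IER3* had 130, 74.5 and 116 CPM in control and 63.8, 61.7 and 56.3 CPM with Arg (log2 fold change −0.82, SE 0.14, adjusted p = 0.00250, edgeR). The neutrophil chemokine *CXCL8* had 7.80, 1.52 and 8.29 CPM in control and 2.98, 0.874 and 0.967 CPM with Arg (log2 fold change −1.87, SE 0.50, adjusted p = 0.0320, edgeR). The prostaglandin synthase *PTGS2* had 12.4, 5.14 and 16.6 CPM in control and 6.69, 5.13 and 4.25 CPM with Arg (log2 fold change −1.09, SE 0.30, adjusted p = 0.0372, edgeR). For the 3 genes control B was the lowest control, and for *CXCL8* and *PTGS2* it lay below Arg A. *GADD45B*, a stress-response gene, was the gene that rose, with 20.2, 19.6 and 22.2 CPM in control and 25.1, 34.4 and 29.2 CPM with Arg (log2 fold change 0.52, SE 0.12, adjusted p = 0.0176, edgeR).

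At 48 h 83 of the 101 genes could be tested against control and 0 passed in either direction by edgeR, with 0 higher and 3 lower at an unadjusted p under 0.05. Among all genes 0% and 0.117% passed, and 5.94% and 7.49% had an unadjusted p under 0.05. DESeq2 called 1 lower, and without control 48 h library B edgeR called 4 higher and 7 lower. Calls over all genes rose in both settings as well, so these counts are not read as a result about the lists. From 24 to 48 h 8 rose and 10 fell of 82 in control, against 9.90% of all genes higher and 19.9% in either direction, and 15 rose and 9 fell of 83 with Arg, against 14.3% and 14.0%. The counts in control were close to these shares. In control the number that rose was between 1 and 5 without any 1 library other than 24 h B, with 4 without 48 h B. The target genes held 2 that rose and 4 that fell of 19 in control, and 5 and 3 of 20 with Arg. *IER3* and *PTGS2* fell in both treatments, by 1.03 and 1.76 on the log2 scale in control (adjusted p = 0.00406 and 0.00650, edgeR) and by 0.77 and 0.75 with Arg (adjusted p = 3.44e-06 and 0.0230, edgeR). *CXCL8* fell in control by 1.97 (SE 0.50, adjusted p = 0.0188, edgeR). Its groups overlapped, since control 24 h B had 1.52 CPM and the 48 h controls 1.10, 1.92 and 1.45 CPM. *BCL2L1*, which encodes a survival protein of the BCL2 family, fell by 0.44 in control (adjusted p = 0.0235) and by 0.46 with Arg (SE 0.070, adjusted p = 6.77e-05, edgeR). The chemokine gene *CCL5* rose with Arg, from 2.19, 1.40 and 2.04 CPM to 5.58, 5.78 and 5.93 CPM (log2 fold change 1.61, SE 0.25, adjusted p = 7.06e-05, edgeR). In control it went from 1.73, 0.847 and 1.91 CPM to 2.99, 7.52 and 2.63 CPM (log2 fold change 1.55, SE 0.44, adjusted p = 0.0285, edgeR), where 48 h library B was the high one. The ligand *TNFSF10*, a death-receptor ligand, rose by 1.28 in control (adjusted p = 0.0453) and 2.30 with Arg (adjusted p = 0.000314, edgeR), and *IL18* by 0.39 and 0.48 (adjusted p = 0.00816 and 0.000188). With Arg *REL*, the remaining subunit gene, rose by 0.59 (SE 0.16, adjusted p = 0.00786), and *ZC3H12A*, which encodes an RNase that degrades inflammatory mRNAs, by 0.84 (SE 0.17, adjusted p = 0.000803, edgeR). *MAP3K14*, the kinase of the non-canonical pathway, rose in control by 0.60 (SE 0.13, adjusted p = 0.00993, edgeR). Without control 48 h library B the control calls of *CCL5* (0.91, adjusted p = 0.112) and *TNFSF10* (1.17, adjusted p = 0.0887, edgeR) were lost. Those of *IER3*, *PTGS2*, *CXCL8*, *BCL2L1*, *IL18* and *MAP3K14* remained. The interaction called 0 of 83.

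**Figure D4:**
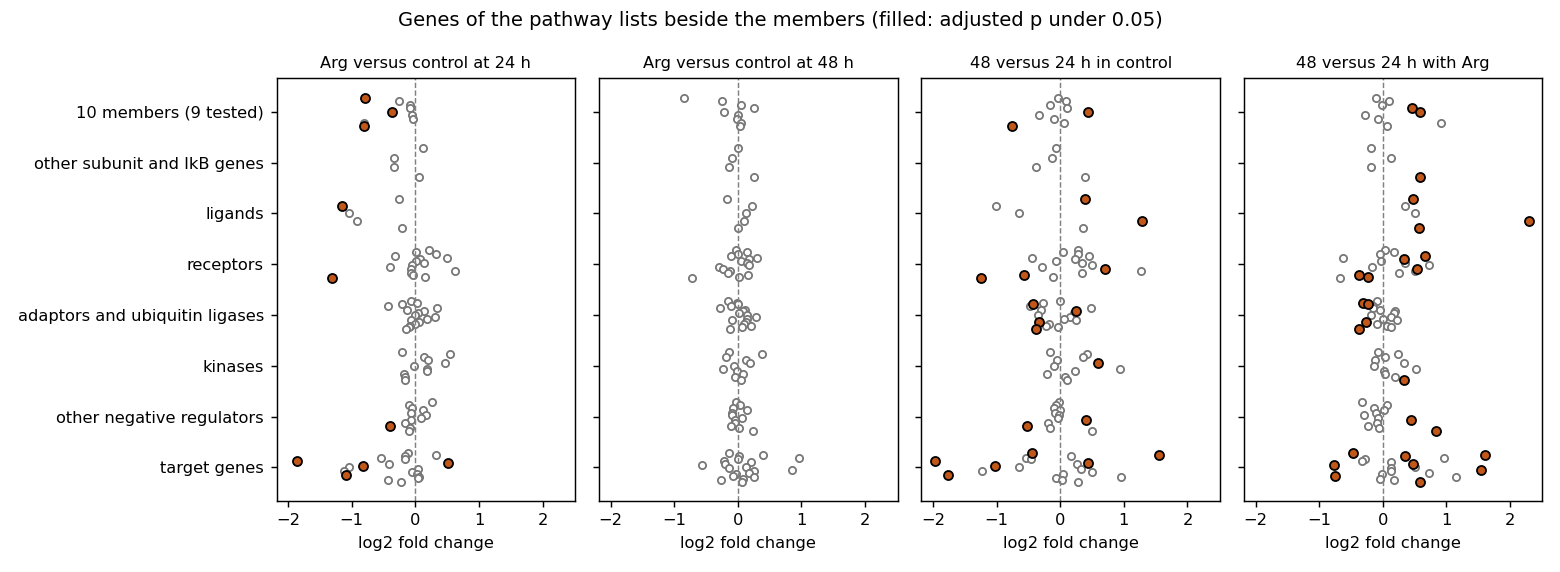
Log2 fold changes of the 9 genes of the set that were tested and of the tested genes of 7 pathway lists (rows), in 4 comparisons with a shared axis; each point is a gene, filled where the adjusted p is under 0.05 (edgeR). At 24 h with Arg the filled points lie mostly below 0, at 48 h none is filled, and between the times filled points lie on both sides.

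The likeness of each gene's log2 level to that of *NFKBIA* was measured by Pearson's r over the 12 libraries, among 13183 genes with a mean of at least 1 CPM. The 5 most similar genes were *GRINA* (r = 0.987), *STAT3* (0.979), *IGFL2-AS1* (0.977), *SLC2A5* (0.974) and *GLDC* (0.971). The 12 points form 4 groups, so r mostly describes the differences between groups. For the mean of the members' standardized levels the closest were *CH25H* (0.907), *PTK2B* (0.895), *IL7R* (0.885), *PFKFB3* (0.880) and *RSAD2* (0.878). The members themselves did not share a single profile. Over the 12 libraries r was highest between *NFKB1* and *TNFAIP3*, at 0.69. It was 0.60 between *NFKBIA* and *BIRC3* and 0.62 between *BCL3* and *BIRC3*. Between *NFKBIA* and *TNFAIP3*, whose levels moved in opposite directions between the times in control, it was −0.13. With the group means taken out, the values for these pairs were, in the same order, 0.37, 0.035, −0.22 and −0.42.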

How the data were processed

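The authors sequenced poly(A) libraries (NEBNext Ultra, paired-end) and, per the labels and the study's methods, used fastp for cleaning, STAR for alignment against GRCh38/hg38, and featureCounts for gene counts. The table they deposited holds unnormalized whole-number counts, each gene's position and its exonic length. Tool versions, annotation release and strand setting are not given in the sources used here. All count columns were used, and 0 were left out.

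Groups came from the labels. Each pair of groups was tested with edgeR 4.0.16 (R 4.3.3; TMM normalization, filterByExpr with a minimum count of 10, quasi-likelihood test), the time difference with an interaction over 12 libraries, and p-values were adjusted by Benjamini-Hochberg over all genes, with a threshold of 0.05. The step was tested on simulated data. Of 100 genes changed by 1.5 on the log2 scale, 79 to 95 were recovered, depending on the comparison. Of 100 genes changed by 0.6, 34 to 68 were recovered, with the fewest for the interaction. A difference of that size can therefore fail to pass. Alternatives were DESeq2 1.42.0, its size factors, no filter, all libraries in a single model, a replicate block, and leaving out each library.

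Levels are TMM-normalized CPM over all 12 libraries. Named genes are the 10 members, the 5 most similar profiles, and up to 3 genes per pathway list and comparison. The latter had the smallest p among those adjusted under 0.05, and examples were taken from them for the times. *AL357060.1* was named for its overlap. *PTGS2* at 24 h and between times with Arg, *CCL5* and *BCL2L1* in control and the named markers were chosen after their values were seen. The members and lists were chosen with earlier results of these data known. With 16542243 to 19040964 counts a library, 3 counts equal 0.156 to 0.179 CPM.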

Additional observations from a re-analysis of the deposited data

How the results depend on the processing

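Among the 5 comparisons, the numbers of the 10 genes called higher or lower did not change with DESeq2, its size factors in edgeR, all 12 libraries in a single model (not run for the interaction) or the replicate block, and with no filter on low counts the 1 change was 1 call lower (*BCL3*) instead of 0 at 48 h with Arg. Over all genes, 17 calls at 48 h with Arg became 167 with DESeq2, 573 with no filter, 41 in the single model and 170 with the replicate block, and 2 interaction calls became 15 with DESeq2 and 88 with no filter. Same-letter correlations of the libraries were −0.042 to 0.13, and libraries did not all correlate best with their own letter. Between times in control B (0.13) and C (0.037) did, as did C between Arg and control at 48 h (0.042). With 3 libraries a group, this cannot exclude that the letters pair the libraries. The block changed no call of a member and turned the sign of the *NFKBIZ* value at 48 h with Arg to −0.033 from 0.0057. Of the 101 pathway genes, an alternative added after seeing the data, 1 was called lower at 48 h with Arg (0 in the main comparison) with DESeq2, with no filter and with the replicate block, and no filter gave 2 called higher at 24 h (1) and 1 higher for the interaction (0). The causes were not tested.

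Leaving out each library in turn gave 359 to 1529 genes called at 24 h with Arg (947 with all), 6 to 2365 at 48 h (17), 828 to 3304 between times in control (2882), 2938 to 3669 with Arg (4072), and 0 to 46 for the interaction (2). The highest counts at 24 h with Arg and in control came without control 24 h B, and those at 48 h with Arg and for the interaction without control 48 h B. Members called lower were 0 to 2 at 24 h with Arg (3), 0 to 2 at 48 h (0) and 0 to 1 between times in control (1), and members called higher between times with Arg were 1 to 3 (2). Pathway genes called higher and lower were 0 to 2 and 1 to 10 at 24 h with Arg, 0 to 4 and 0 to 7 at 48 h, 1 to 7 and 4 to 15 between times in control, and 10 to 13 and 5 to 11 with Arg. Log2 fold changes that crossed 0, none of them called, ranged at 24 h with Arg from −0.25 to 0.0075 for *NFKB2*, −0.095 to 0.0039 for *RELA* and −0.13 to 0.0021 for *NFKBIZ*, and at 48 h from −0.019 to 0.015 for *RELA*, −0.037 to 0.16 for *RELB*, −0.26 to 0.26 for *NFKBIZ* and −0.086 to 0.21 for *TNFAIP3*. Between times they ranged in control from −0.054 to 0.20 for *NFKB2*, −0.056 to 0.20 for *RELB* and −0.15 to 0.057 for *BCL3*, and with Arg from −0.043 to 0.020 for *NFKB1*. For the interaction they ranged from −0.014 to 0.097 for *RELA*, −0.21 to 0.31 for *NFKBIZ*, −0.19 to 0.044 for *BCL3* and −0.10 to 0.11 for *BIRC3*. *TNF*, *RELB* and *NFKBIZ* had at most 4, 45 and 83 counts in a library.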
